A study of Mus musculus with 18 samples.

Results

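Hepatic de novo lipogenesis was examined through 10 genes, chosen by symbol from the normalized expression table: the regulators Srebf1 and Mlxipl, the enzymes Acly, Acaca, Acacb, Fasn, Elovl6, Scd1 and Me1, and the accessory protein gene Thrsp. Each symbol matched 1 of 14451 genes in the table, and all 10 were tested, as were 14449 genes in all, those with reads in 1 or more livers. The livers came from male wild-type mice, 8 to 9 weeks old, housed under 12 h of light and 12 h of dark and killed at ZT1, ZT5, ZT9, ZT13, ZT17 or ZT21, where ZT (zeitgeber time) counts the hours since lights on. RNA of 5 mice was prepared at each time and the 3 best preparations were sequenced, which gave 18 livers in 6 groups of 3, without any genetic or drug treatment. The feeding schedule is not given in the sources used here.

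De novo lipogenesis converts surplus carbohydrate into fatty acids in the hepatocyte cytosol. ATP-citrate lyase (Acly) releases acetyl-CoA from citrate, acetyl-CoA carboxylase 1 (Acaca) turns it into malonyl-CoA, fatty acid synthase (Fasn) builds palmitate, Elovl6 lengthens it and stearoyl-CoA desaturase 1 (Scd1) introduces a double bond. Malic enzyme (Me1) supplies NADPH, while acetyl-CoA carboxylase 2 (Acacb) makes malonyl-CoA at the mitochondrial surface, where it restrains fatty acid oxidation. SREBP-1 (Srebf1) is the insulin-responsive and ChREBP (Mlxipl) the carbohydrate-responsive transcription factor known to act on these genes, and Thrsp (Spot 14) is a small lipogenic protein known to be induced by carbohydrate and thyroid hormone.

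Values are estimated reads per 1000000 of an effective library size, here called normalized reads. Between 10268168 and 23242842 estimated reads per liver fell on genes (median 12078875), and every member was supported by at least 825 reads in every liver. No 2 libraries of the same time held identical values. The labelled tissue was checked against marker genes: the summed hepatocyte markers Alb, Apoa1, Ttr and Cps1 ranged from 64741 to 94445 normalized reads across livers, whereas 1 of 5 adipocyte markers, Cfd, had a value to analyse here and it stayed between 0.0433 and 1.92. Summed markers of Kupffer cells, the resident macrophages, ranged from 84.4 to 223, and those of sinusoidal endothelium from 59.2 to 133. The sums of stellate cell, cholangiocyte and erythroid markers ranged from 133 to 214, from 5.58 to 15.1 and from 19.4 to 567. In bulk liver, fewer cells of a type and less RNA per cell cannot be told apart.

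Per kilobase of annotated exon, Scd1 had by far the highest mean level of the 10 genes, at 1999 normalized reads per kb. Thrsp followed at 394, then Acly at 90.5, Fasn at 89.0, Me1 at 83.7, Srebf1 at 71.8 and Mlxipl at 59.5. Elovl6 (25.2), Acacb (17.0) and Acaca (9.31) were lowest. Across livers, the per-kilobase ranges of Acly (57.1 to 146), Fasn (52.8 to 217), Me1 (51.8 to 147) and Srebf1 (40.6 to 125) overlapped widely, so these neighbours in the order were not separated by their spread, while the lowest Scd1 liver (1179) lay below the highest Thrsp liver (1282).

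The members lie on 6 chromosomes in the GRCm38 annotation. Srebf1 (chr11:60199089-60222581), Acly (chr11:100476353-100528000), Fasn (chr11:120805846-120824547) and Acaca (chr11:84129672-84401651) share chromosome 11, and Mlxipl (chr5:135089890-135138382) and Acacb (chr5:114146535-114250761) share chromosome 5. Scd1 is at chr19:44394455-44407879, Elovl6 at chr3:129532355-129638495, Me1 at chr9:86581371-86695953 and Thrsp at chr7:97412938-97417730. RefSeq promoter windows (GRCm38.p6, 250 bases before to 50 after a start) were matched for 9 of the 10 members, in 13 windows, all but Scd1. They were searched on both strands for a sterol regulatory element (TCACNCCAC), a canonical E-box (CACGTG), a D-box (TTATGTAA) and a CCAAT box, whose letters are its name. The CCAAT box was present in 8 of 13 member windows (7 genes: Srebf1, Mlxipl, Fasn, Acacb, Acly, Me1 and Thrsp) and in 37.4% of all 32851 windows. The E-box and the sterol regulatory element were each in 1 member window, both of Mlxipl but not the same one, against 7.15% and 1.24% of all windows, and the D-box was in 0, against 0.938%. Stretches are shown for Fasn and Thrsp, the 2 members with the largest differences from ZT9 to ZT13, and for Mlxipl, the regulator with the E-box. Capitals mark the matches to these letters on either strand. In Fasn (minus strand, chr11:120824548-120824667, the 120 bases up to the start), 1 CCAAT read on the gene's strand overlaps 1 read on the other, and a further one lies upstream. The Mlxipl stretch is on the plus strand (chr5:135089770-135089889, likewise 120 bases), and the 2 Thrsp stretches of 30 bases are on the minus strand (chr7:97417611-97417640 and chr7:97417581-97417610), 90 to 61 and 60 to 31 bases before the RefSeq start and inside the gene's span in the annotation used above. A match describes the letters in the window and nothing about binding.
Fasn: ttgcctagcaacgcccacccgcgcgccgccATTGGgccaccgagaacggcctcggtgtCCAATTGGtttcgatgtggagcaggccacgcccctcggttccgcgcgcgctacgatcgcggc
Mlxipl: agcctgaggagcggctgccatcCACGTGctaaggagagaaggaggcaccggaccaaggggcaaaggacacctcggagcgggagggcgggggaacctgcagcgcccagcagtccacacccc
Thrsp, far: caaacgctgggATTGGctcaaaacagggct
Thrsp, near: gtgttgctCCAATggttgggctttggcatc

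The first question was whether the level of each gene differed among the 6 times. It did for 6 of the 10 genes (Srebf1, Acaca, Fasn, Scd1, Elovl6 and Thrsp) by limma's moderated F test on log2(value + 1) at an adjusted p below 0.05, while 26.3% of all genes tested were called. A cosine of 24 h was called for 5 (Srebf1, Acaca, Scd1, Elovl6 and Thrsp), against 35.3% of all genes. The rank-based JTK test called 3 (Acaca, Elovl6 and Thrsp), against 14% of all genes, with Srebf1 just outside (adjusted p = 0.0524). Srebf1 was called by JTK under all 5 other settings tried (adjusted p from 0.0161 to 0.0461) and on leaving out any of 3 livers. The value of 0.0161 came with times of equal cosine taken as 1 group in the null, whereas the main null, which keeps them apart, gives larger p-values. The members' median 24 h amplitude was 0.40 on the log2 scale, compared with 0.16 over all genes tested. All 10 members had a mean value of at least 100, a level that 1267 of the 14449 genes reached. Adding 1 before the log shrinks the amplitude of low genes, so these medians are not of like genes. No member was called for an added wave of 12 h in limma (0.872% of all genes were). In that test 2 members had an unadjusted p below 0.05, Srebf1 (0.0253) and Fasn (0.0310). The share of all genes at that unadjusted level is not given here, so this count cannot be set against 0.872%.

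**Figure D1:**
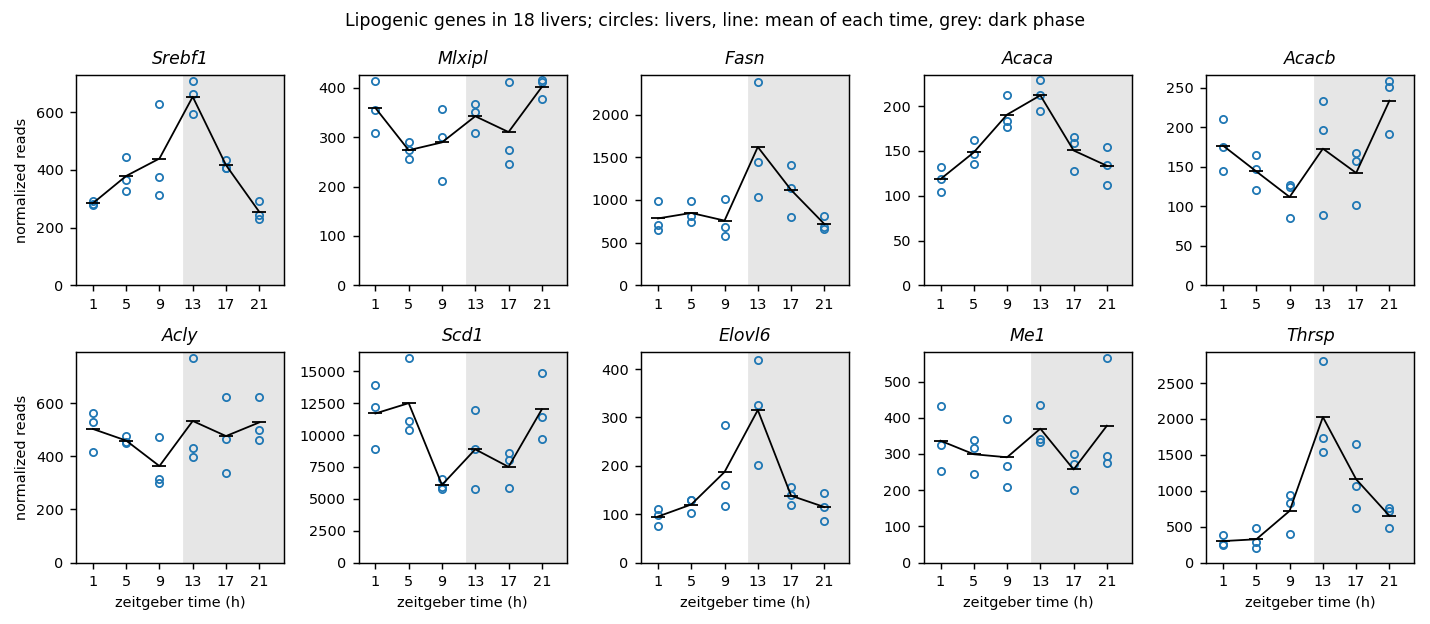
Normalized reads (y axes, from 0) against zeitgeber time in hours (x axes) for the 10 genes, 1 circle per liver, a line through the mean of the 3 livers at each time, and the dark phase in grey. Srebf1, Acaca, Elovl6, Fasn and Thrsp have their highest mean at ZT13, whereas Scd1 is lowest at ZT9, where its livers sit between 5795 and 6566.

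Among the regulators, Srebf1 showed a daily wave with its maximum around lights off. Its values were 278, 293 and 283 normalized reads in the ZT1 livers, 326, 366 and 446 at ZT5, and 314, 376 and 628 at ZT9. They were 707, 593 and 662 at ZT13, 407, 408 and 436 at ZT17, and 243, 229 and 292 at ZT21. The 3 livers of ZT13 lay above every liver of ZT1, ZT5, ZT17 and ZT21, and the only overlap was with 1 ZT9 liver. The mean was 654 ± 57.4 at ZT13 and 255 ± 33.2 at ZT21 (SD, n = 3), a ratio of 2.57. The time effect had an adjusted p = 0.000965 and the 24 h cosine an amplitude of 0.57 ± 0.09 (SE, log2) with an adjusted p = 0.000488. The fitted peak fell at ZT11.9, with a 95% interval from 10.6 to 13.2 h. The SREBP-1a and SREBP-1c transcripts share this gene and were not separated.

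Mlxipl varied little in comparison. Its values were 309, 355 and 414 at ZT1, 256, 290 and 274 at ZT5, and 357, 211 and 301 at ZT9, then 352, 367 and 309 at ZT13, 274, 412 and 246 at ZT17 and 417, 377 and 412 at ZT21. The ZT5 livers lay below all ZT1 and ZT21 livers, but ZT9 and ZT17 each spanned most of the range. Neither the time effect (adjusted p = 0.168) nor the cosine (amplitude 0.20 ± 0.08, adjusted p = 0.146) was called. The interval of the amplitude, 0.03 to 0.38, met that of Srebf1, 0.38 to 0.76, only at its edge, although the difference between the amplitudes was not tested. Without liver 2 of ZT17 the Mlxipl time effect was called (adjusted p = 0.0490), and without liver 3 of ZT17 the cosine was (adjusted p = 0.0436).

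Thrsp had the widest daily range of the 10 genes. It measured 251, 256 and 390 normalized reads at ZT1, 201, 293 and 479 at ZT5 and 826, 391 and 940 at ZT9. It reached 1736, 1539 and 2806 at ZT13, followed by 758, 1653 and 1066 at ZT17 and 755, 484 and 713 at ZT21. All ZT13 livers exceeded all ZT1, ZT5, ZT9 and ZT21 livers, and overlapped with 1 ZT17 liver. The mean of ZT13 (2027 ± 682, SD, n = 3) was 6.78 times that of ZT1 (299 ± 78.5). The amplitude was 1.34 ± 0.16 (SE, log2), a fitted peak-to-trough ratio of 6.37, with an adjusted p = 2.27e-05, and the peak lay at ZT14.5 (13.6 to 15.5 h). This interval did not meet those of Srebf1 or of Acaca, although the difference in peak time was not tested.

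Acaca, the enzyme of the committed step, moved less but with the smallest spread. Values were 119, 104 and 133 at ZT1, 163, 136 and 147 at ZT5 and 212, 183 and 176 at ZT9, and then 212, 195 and 229 at ZT13, 127, 159 and 166 at ZT17 and 112, 134 and 155 at ZT21. The ZT9 and ZT13 livers were all above the livers of the other 4 times. Its ZT13 mean was 1.79 times its ZT1 mean, with an amplitude of 0.40 ± 0.06 (adjusted p = 0.000171) and a peak at ZT11.6 (10.4 to 12.7 h). Its mitochondrial counterpart Acacb had a different profile, with a lowest mean at ZT9 (112 ± 23.6) and a highest at ZT21 (234 ± 36.3, SD, n = 3). The ZT9 livers (127, 124 and 84.7) lay below the ZT21 livers (192, 251 and 258), and the cosine, with a fitted peak at ZT21.5, was not called (amplitude 0.37 ± 0.13, adjusted p = 0.0738), although it was without liver 1 of ZT13 (0.0189), liver 3 of ZT13 (0.0419) or liver 1 of ZT17 (0.0293). In the ZT13 livers Acacb measured 234, 88.9 and 197. Without the low liver, liver 2, Acacb passed the test for the time effect (adjusted p = 0.0146) and for dark against light (0.44 log2, adjusted p = 0.0241).

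Elovl6, the elongase of palmitate, followed Srebf1 and Acaca in time. It measured 99.0, 75.1 and 111 at ZT1, 129, 103 and 128 at ZT5 and 284, 118 and 160 at ZT9, then 326, 201 and 419 at ZT13, 119, 157 and 139 at ZT17 and 85.5, 115 and 143 at ZT21. The lowest ZT13 liver was above all livers of ZT1, ZT5, ZT17 and ZT21. The mean of ZT13 was 3.32 times that of ZT1, the amplitude 0.71 ± 0.13 (adjusted p = 0.0017) and the peak ZT12.3 (10.8 to 13.8 h). The JTK call of Elovl6 (adjusted p = 0.0229) was lost on leaving out any of 4 livers, with adjusted p between 0.0528 and 0.0650.

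Fasn also had its highest mean at ZT13, with a wide spread. Its values were 712, 651 and 988 at ZT1, 746, 807 and 991 at ZT5 and 681, 578 and 1016 at ZT9. At ZT13 they were 1036, 1447 and 2379, at ZT17 805, 1409 and 1138, and at ZT21 679, 658 and 817. The ZT13 livers lay just above all livers of ZT1, ZT5, ZT9 and ZT21, the lowest of them close to the highest ZT9 liver, and overlapped with ZT17. The time effect passed (adjusted p = 0.0401), whereas the cosine (amplitude 0.41 ± 0.14, peak ZT13.9 with an interval from 11.2 to 16.6 h, adjusted p = 0.0652) did not. The cosine was called with a variance trend (adjusted p = 0.0458) and on leaving out any of 4 livers, liver 3 of ZT1, liver 1 or 2 of ZT9 or liver 1 of ZT17 (adjusted p from 0.0281 to 0.0486). Without liver 3 of ZT13, the highest, the time effect had an adjusted p = 0.122. The call was borderline, being lost on leaving out any of 12 livers and under 3 of the 5 other settings tried, among them quantile normalization (adjusted p = 0.0865).

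Scd1, the desaturase, was out of step with the other called genes. It measured 12204, 8936 and 13937 at ZT1, 16023, 10374 and 11110 at ZT5 and 6566, 5795 and 5916 at ZT9. Values of 8886, 5770 and 11985 followed at ZT13, 5869, 8027 and 8613 at ZT17 and 9700, 11443 and 14903 at ZT21. Every ZT9 and every ZT17 liver was below every ZT1, ZT5 and ZT21 liver, while ZT13 overlapped with all of them. The time effect (adjusted p = 0.0236) and the cosine (amplitude 0.43 ± 0.12, adjusted p = 0.0276) were called, with a peak at ZT0.41 (22.2 to 2.66 h), an interval apart from those of Srebf1, Acaca, Elovl6, Fasn and Thrsp. It overlapped the intervals of Acacb (18.8 to 0.24 h) and Mlxipl (17.3 to 23.8 h), whose cosines were not called. The Scd1 cosine call was lost on quantile normalization (adjusted p = 0.0686), without liver 3 of ZT1 (0.0587) and without liver 2 of ZT13 (0.0651), and the Scd1 time effect was lost without liver 2 (0.0588) or liver 3 (0.0577) of ZT9. The summed hepatocyte markers were also lowest at ZT9, at 64741 to 69213 normalized reads against 70629 or more in every other liver, and their part in the Scd1 values was not tested.

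Acly and Me1, which supply acetyl-CoA and NADPH, were not called in any test of time. Acly had time means between 364 ± 95.1 at ZT9 and 534 ± 206 at ZT13 (SD, n = 3), with livers from 301 to 771 and overlap between these times. Its amplitude was 0.18 ± 0.10 (adjusted p = 0.348). Me1 had time means between 257 ± 51.7 at ZT17 and 378 ± 161 at ZT21, livers from 199 to 564, and an amplitude of 0.06 ± 0.12 with an interval from -0.20 to 0.31 (adjusted p = 0.928). Peak times are not given for these 2 genes because the intervals of their amplitudes include 0. A fitted amplitude cannot be negative, so these symmetric intervals are approximate and do not test it against 0. That of Mlxipl lay above 0, although the F test of its cosine had an unadjusted p = 0.0758.

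**Figure D2:**
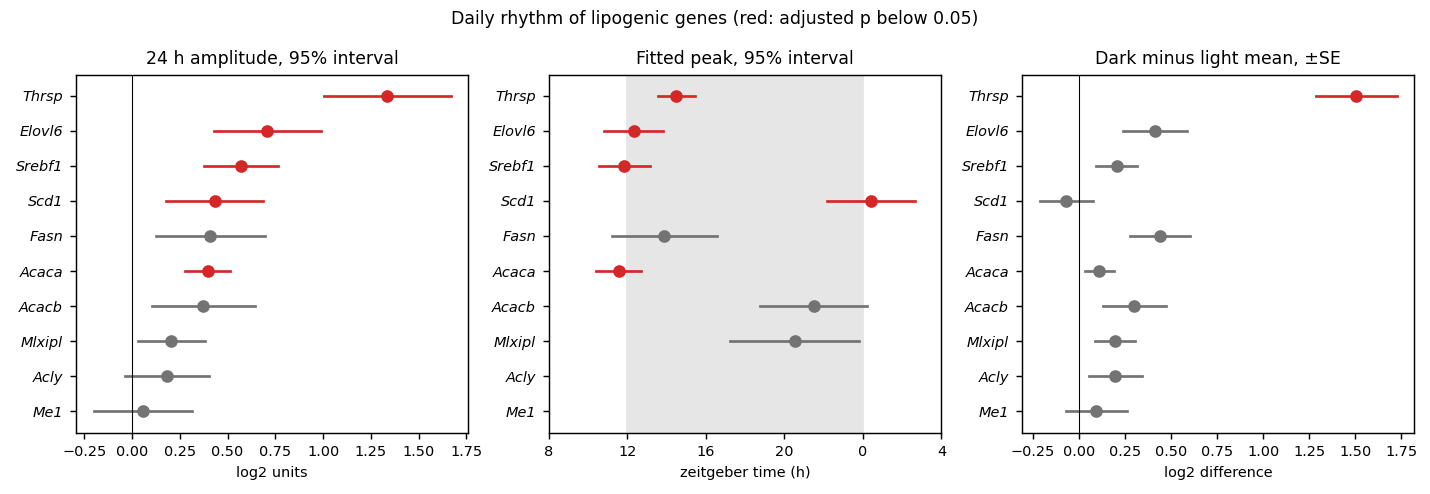
For each gene, the 24 h amplitude with its 95% interval (left, log2 units), the fitted peak with its 95% interval (middle, zeitgeber time in hours, drawn for the 8 genes whose amplitude interval lies above 0) and the dark minus light difference ± SE (right, log2), in red where the adjusted p is below 0.05. Thrsp has the largest amplitude (1.34) and difference (1.51), and the Scd1 peak near ZT0 stands apart from the peaks between ZT11.6 and ZT14.5. The Scd1 interval overlaps those of Acacb and Mlxipl.

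The dark phase (ZT13, ZT17 and ZT21), when mice mostly feed, was then compared with the light phase (ZT1, ZT5 and ZT9). Thrsp was the only member called, at a difference of 1.51 ± 0.22 on the log2 scale (SE, adjusted p = 0.000195). Of all genes tested, 11.9% were higher and 12.3% lower in the dark, and 0 members were lower. The other differences ranged from -0.07 ± 0.15 for Scd1 to 0.44 ± 0.16 for Fasn (adjusted p = 0.0634), with Elovl6 at 0.41 ± 0.17 (adjusted p = 0.0951) and Srebf1 at 0.20 ± 0.11 (adjusted p = 0.195). The median over the members was 0.20, against -0.01 over all genes. High Srebf1 values lay on both sides of lights off. Without liver 3 of ZT9, in which Srebf1 was at 628, the difference for Srebf1 was 0.30 and was called (adjusted p = 0.0114).

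Neighbouring times were then compared. From ZT9 to ZT13, the interval that contains lights off, all 10 genes had a higher mean and 3 rose by the test, whereas 4.64% of all genes rose and 4.6% fell. Thrsp rose by 1.54 ± 0.38 (SE, log2, adjusted p = 0.0196), Fasn by 1.05 ± 0.28 (adjusted p = 0.0296) and Srebf1 by 0.63 ± 0.19 (adjusted p = 0.0497). The differences of the other 7 genes ran from 0.16 ± 0.14 for Acaca to 0.78 ± 0.30 for Elovl6 (adjusted p = 0.118). The median over the members was 0.53, against -0.0033 over all genes. The summed hepatocyte markers were also higher at ZT13 (79217 to 87167 normalized reads) than at ZT9 (64741 to 69213), and their part in these differences was not tested. These calls rested on few livers: 0 members were called without liver 2 of ZT9 or without liver 3 of ZT13. Without liver 2 of ZT13 the calls went to Thrsp, Elovl6 and Acacb. The Srebf1 call was lost on leaving out any of 16 of the 18 livers, and its difference ran from 0.42 to 0.92 over the 18 omissions.

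At the other 5 steps limma called 0 members. For these steps, members are counted at an unadjusted p below 0.05, whereas the shares of all genes are of calls at an adjusted p. These thresholds differ, so the counts and shares cannot be set against each other. Shares of all genes at an unadjusted p are not given here. From ZT1 to ZT5, 1 member had an unadjusted p below 0.05 and 4.89% of all genes were called. From ZT5 to ZT9, 3 members had an unadjusted p below 0.05, with 1.54% of all genes called, and Scd1 differed by -1.01 ± 0.25 (adjusted p = 0.0613). From ZT13 to ZT17, 4 had an unadjusted p below 0.05 and 1.2% of genes were called, with Elovl6 at -1.13 ± 0.30 (adjusted p = 0.0856) and Srebf1 at -0.65 ± 0.19 (adjusted p = 0.116). The step from ZT17 to ZT21 had 4 at an unadjusted p below 0.05, with 1.51% of genes called and Srebf1 at -0.72 ± 0.19 (adjusted p = 0.0781). From ZT21 to ZT1 there was 1 at an unadjusted p below 0.05, and 0.131% of genes were called. The return of Thrsp from its maximum was spread over 3 steps of -0.83 ± 0.38, -0.79 ± 0.38 and -1.12 ± 0.38, none of which passed alone.

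Livers taken at the same time differed widely in these genes. The within-time SD on the log2 scale was 0.171 for Acaca, 0.250 for Srebf1 and for Mlxipl, and between 0.340 and 0.521 for the other 7, highest for Thrsp. Among the 1267 genes with a mean value of at least 100, the median was 0.111, and the members lay between percentiles 77.6 (Acaca) and 98.2 (Thrsp). The deviations were shared between genes. Liver 3 of ZT1 was the highest of its time for 9 of 10 members, liver 3 of ZT21 for 8, and liver 1 of ZT9, liver 3 of ZT13 and liver 2 of ZT17 for 7 each, while liver 1 of ZT17 was the lowest for 9. Srebf1 was often the exception: at ZT1 and ZT13 its highest liver was another one.

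**Figure D3:**
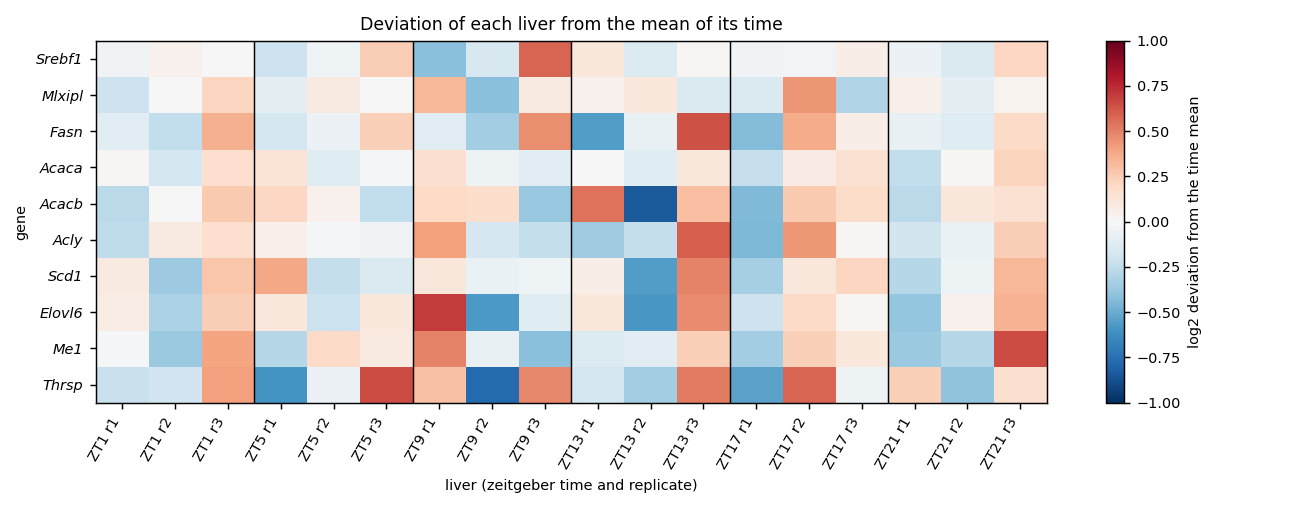
Deviation of each liver (x axis, 3 per zeitgeber time) from the mean of its time for the 10 genes (y axis), as a colour from blue (below) to red (above) on the log2 scale. Liver 3 of ZT1 and liver 3 of ZT21 are red in nearly all genes and liver 1 of ZT17 is blue, and at ZT9 Srebf1 (top line), Fasn and Thrsp are highest in liver 3 and the other 7 genes in liver 1.

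After subtraction of the time means, all 28 pairs among the 8 genes other than Srebf1 and Mlxipl had a positive Pearson r, from 0.03 to 0.87 with a median of 0.56 (18 livers, 12 residual degrees of freedom). An r above 0.5 was found for 64.3% of these pairs, compared with 10.7% of pairs of other genes with a mean of at least 100, whose median was 0.06. These points share their libraries and depth, and the values are descriptive. The other genes were chosen by mean level only, and the members had a wider within-time spread than most of them. These shares are therefore not of like genes, and the part of the spread in the contrast was not tested. The highest were Acaca with Scd1 (r = 0.87) and Fasn with Thrsp (r = 0.80). Acaca and Scd1 had opposite daily profiles, and over all livers with the times left in their r was -0.27. The 9 pairs with Srebf1 had a median of -0.07 and ranged from -0.21 to 0.43. Without livers 1 and 3 of ZT9, the farthest in Srebf1, the 9 values ran from 0.16 to 0.62. The time means were left as they were, so liver 2 of ZT9 kept a deviation from a mean that included the 2 omitted livers. These values are therefore not strictly within-time. Whether the low values rested on the 2 livers was not tested. Over all 18 livers, the pairs with Mlxipl had a median of 0.31.

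Whether mice with more Srebf1 or Mlxipl RNA at a given time also had more RNA of the other genes was tested as a slope across all genes. For Srebf1, limma called 0 of 14448 genes (0%), with 648 (4.49%) at an unadjusted p below 0.05, and 0 of the 9 other members at either level. The largest slopes among members were those of Thrsp, 0.90 ± 0.51 (SE, adjusted p = 1.00, r = 0.43, rho = 0.55), and Fasn, 0.65 ± 0.38 (adjusted p = 1.00, r = 0.42, rho = 0.44). Leaving out the 2 livers farthest in Srebf1, both of ZT9, r was 0.62 for Thrsp and 0.28 for Fasn, and for Me1 it went from -0.15 to 0.50. The time means were again not recomputed, so these values of r are not strictly within-time. For Mlxipl, limma called 0 genes (0%), with 1712 (11.8%) at an unadjusted p below 0.05, of which 1 was a member. This was Thrsp, with a slope of 1.25 ± 0.45 (adjusted p = 0.267, r = 0.60, rho = 0.51). Without the 2 livers farthest in Mlxipl, r was 0.38, with the time means likewise not recomputed.

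The genes around the pathway were followed in 4 lists. Among 19 genes of SREBP-1 processing and of insulin or nuclear receptor input, 13 had a 24 h rhythm, 11 a time effect and 8 a JTK call, beside 35.3%, 26.3% and 14% of all genes tested. Insig2, which retains the SREBP precursor in the endoplasmic reticulum, ran nearly opposite to Srebf1, from 352 ± 27.8 at ZT1 down to 66.2 ± 13.4 at ZT9 (SD, n = 3), with an amplitude of 1.13 ± 0.09 (adjusted p = 2.53e-07) and a peak at ZT22.5. Irs2, an insulin receptor substrate, peaked at ZT0.19 (amplitude 1.11 ± 0.14, adjusted p = 3.6e-05). Lpin1, a phosphatidate phosphatase that also acts in the nucleus, peaked at ZT10.4 (1.02 ± 0.23, adjusted p = 0.00757), and the coactivator gene Ppargc1b, with no time mean above 6.18, at ZT7.96 (0.60 ± 0.13, adjusted p = 0.00634). JTK called Insig2 and Irs2 but neither Lpin1 (adjusted p = 0.196) nor Ppargc1b (0.130). The Lpin1 livers of ZT13 measured 271, 64.8 and 253 normalized reads. Insig1, the most abundant of the genes not called, had an amplitude of 0.31 ± 0.11 (adjusted p = 0.0728). Dark against light, 2 of the 19 were higher and 5 lower (11.9% and 12.3% of all genes).

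Of 10 genes of carbohydrate input, 9 had a 24 h rhythm, 7 a time effect and 3 a JTK call, and 5 were higher and 2 lower in the dark, beside 35.3%, 26.3%, 14%, 11.9% and 12.3% of all genes in the same order. Pklr, liver pyruvate kinase and a ChREBP target, peaked at ZT14.0 (0.57 ± 0.13, adjusted p = 0.00829). It was 1 of the 5 higher in the dark (adjusted p = 0.0328), a call lost on quantile normalization, on equal column totals and on leaving out any of 9 livers. G6pc, the glucose-6-phosphatase of glucose release, peaked at ZT0.39 (0.93 ± 0.22, adjusted p = 0.00852) and Txnip, a glucose-responsive gene, at ZT7.68 (0.66 ± 0.13, adjusted p = 0.00206). The time effect was not called for G6pc (adjusted p = 0.0852) or Pklr (0.0605). JTK called neither G6pc (adjusted p = 0.159) nor Pklr (0.130) nor Txnip (0.0852). The G6pc livers of ZT5 ran from 120 to 632 normalized reads. Gpd1, which makes glycerol-3-phosphate, was not called (0.03 ± 0.05, adjusted p = 0.875).

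Among 12 genes that supply citrate, acetyl-CoA and NADPH, 7 had a 24 h rhythm, 6 a time effect and 4 a JTK call, with 3 higher and 1 lower in the dark, and the shares of all genes were again 35.3%, 26.3%, 14%, 11.9% and 12.3%. Acss2, acetyl-CoA synthetase, peaked at ZT1.58 (0.52 ± 0.10, adjusted p = 0.0019), near Scd1. G6pdx, the entry enzyme of the pentose phosphate pathway, was low, at 5.42 to 11.7 by time mean, and peaked at ZT22.0 (0.50 ± 0.10, adjusted p = 0.00186). H6pd, its counterpart in the endoplasmic reticulum, peaked at ZT1.88 (0.29 ± 0.06, adjusted p = 0.00347), and Tkt, transketolase, at ZT16.8 (0.20 ± 0.05, adjusted p = 0.00957). Of these, JTK called G6pdx (adjusted p = 0.0282) but not Acss2 (0.159), H6pd (0.0542) or Tkt (0.130). Idh1, a cytosolic source of NADPH, was not called (0.03 ± 0.04, adjusted p = 0.786).

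Of 15 genes that use the new fatty acids, 8 had a 24 h rhythm, 8 a time effect and 7 a JTK call, with 5 higher and 3 lower in the dark, against the same 35.3%, 26.3%, 14%, 11.9% and 12.3% of all genes. Elovl3, an elongase of very long chains, had the largest amplitude in the 4 lists, 2.14 ± 0.14 (adjusted p = 2.69e-08), with 791 ± 49.0 at ZT1 and 38.1 ± 8.65 at ZT9 and a peak at ZT22.3. The elongase Elovl5 peaked at ZT0.88 (0.91 ± 0.09, adjusted p = 2.55e-06), the desaturase Fads2 at ZT8.78 (0.68 ± 0.09, adjusted p = 5.36e-05) and the elongase Elovl2 at ZT4.38 (0.51 ± 0.06, adjusted p = 2.22e-05). The desaturase Fads1 was not called (0.18 ± 0.06, adjusted p = 0.0861). The 4 elongases thus had fitted peaks at different times of day, that of Elovl6 at ZT12.3.

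**Figure D4:**
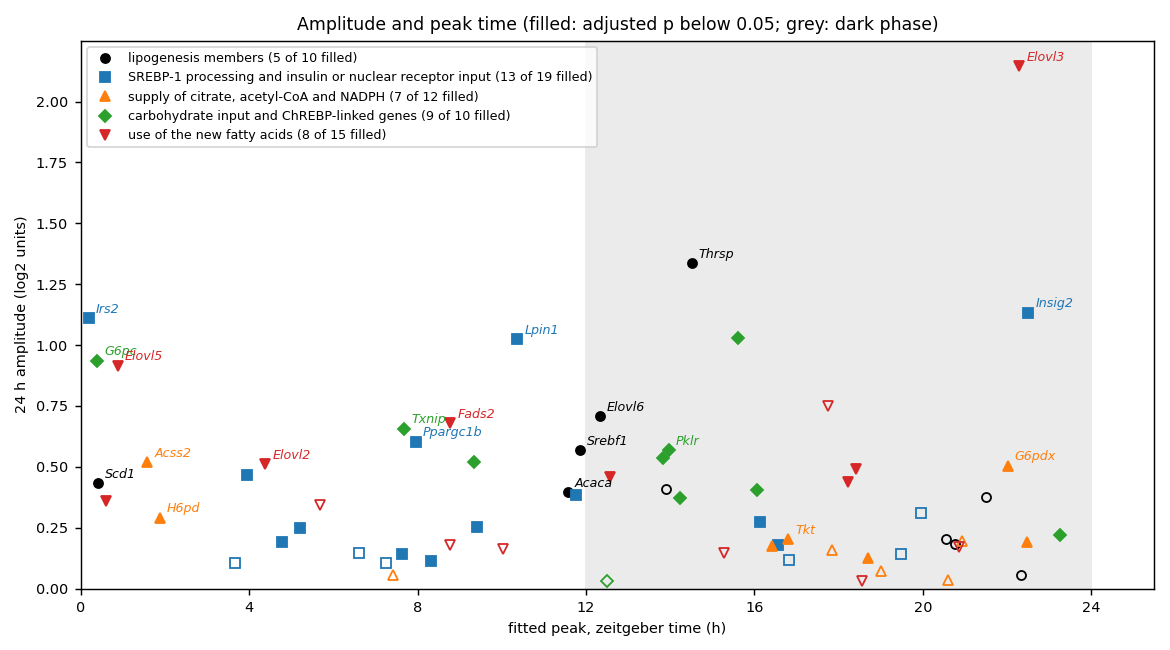
Fitted 24 h amplitude (y axis, log2 units) against fitted peak (x axis, zeitgeber time in hours) for the 10 lipogenic genes (black) and the genes of 4 surrounding lists (colours), filled where the adjusted p is below 0.05, with the dark phase in grey. Srebf1, Acaca and Elovl6 cluster near ZT12 and Thrsp lies after them, while Scd1, Insig2, Elovl3 and Elovl5 lie around the end of the dark phase.

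By likeness of profile over the 18 livers (Pearson r of log2 values, genes with a mean of at least 1), the 5 genes outside the 10 that were nearest to Srebf1 were Inmt (0.91), Eif6 (0.90), B4galt5 (0.90), Slc25a11 (0.89) and Cys1 (0.89). The 5 nearest to Fasn were Wdr36 (0.85), Dhrs7 (0.80), Vac14 (0.78), Prodh (0.78) and Nudt19 (0.77). Neither list contained a gene of the 4 pathway lists.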

How the data were processed

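The deposited values are a normalized expression signal. Per the labels and the study's methods, the authors sequenced poly(A) RNA as single reads, made calls with CASAVA 1.8.2, trimmed with Cutadapt, estimated counts with RSEM 1.2.20 on GRCm38 (Ensembl annotation) and normalized with limma. The values are estimated reads plus 0.5 per 1000000 of an effective library size; column totals ran from 941088 to 1077230. Only 39.1 to 47.9% of the values per liver were whole reads (tolerance 0.002), so no count model was used. On log2(value + 1), limma 3.58.1 in R 4.3.3 fitted time means, cosines of 24 h and 12 h, and slopes, with Benjamini-Hochberg adjustment over all 14449 genes. JTK was rewritten with an exact null and periods of 20, 24 and 28 h. Calls were made at 0.05. Scripts were tested on simulated data.

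The members, lists and tests were chosen with earlier results of these data known. Named genes were the 10 members, up to 4 genes per list with the largest amplitude among those called plus the most abundant not called, and the 5 nearest to Srebf1 and to Fasn. The values of 1 gene that this rule names are not reported here. Livers were numbered within a time in accession order. Each came from a separate mouse, so p-values reflect the spread between mice. The log2(value + 1) scale understates changes of low genes, the more so the lower the value. The dark minus light difference of Ppargc1b, for example, was -0.51, and -0.63 with a pseudocount of 0.1. Alternatives were another pseudocount, a mean of at least 1, quantile normalization, equal column totals, a variance trend, other JTK nulls and leaving out each liver.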

Additional observations from a re-analysis of the deposited data

How the results depend on the processing

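No call turned to the other direction under any alternative. The counts of genes with a time effect, a 24 h rhythm or a dark and light difference stayed within 1.5 times under the 5 alternatives and without any 1 liver. With a variance trend, Fasn joined Thrsp in the dark and light comparison (2 members), Scd1 was called from ZT5 to ZT9 (1 member, 334 genes), Acaca and Elovl6 from ZT13 to ZT17 (2 members, 300 genes) and Srebf1 from ZT17 to ZT21 (1 member, 333 genes), the step from ZT21 to ZT1 had 29 genes, and the slope on Mlxipl had 9. With quantile normalization, 1 member, Thrsp, was called from ZT9 to ZT13. JTK with equal cosines as 1 group called 3237 genes, against 2018 with the main null. That setting leaves out of the null the pairs that the statistic scores 0, which makes p smaller. A pseudocount of 0.1 gave 76 genes for the 12 h wave. The causes of the changes other than that in JTK were not tested.

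Without each liver in turn, members called ranged from 4 to 7 for the time effect and for the 24 h rhythm, 2 to 4 for JTK, 1 to 3 for dark and light, 0 to 3 from ZT9 to ZT13, and 0 to 1 from ZT5 to ZT9, from ZT13 to ZT17 and from ZT17 to ZT21. Genes called ranged from 352 to 729 from ZT1 to ZT5, 79 to 238 from ZT5 to ZT9, 701 to 1342 from ZT9 to ZT13, 49 to 208 from ZT13 to ZT17, 49 to 209 from ZT17 to ZT21 and 9 to 19 from ZT21 to ZT1, 1127 to 1793 for JTK, 32 to 114 for the 12 h wave and 0 to 39 for the slope on Mlxipl. No paired analysis was possible because the labels give the livers no shared replicate numbers. With 3 livers a time over 1 day, periods cannot be told apart, and the Srebf1 rise from ZT9 to ZT13 was lost in 3 of 5 alternatives. Left-out livers added Fasn (liver 3 of ZT1, 3 of ZT9, 1 of ZT13 or 1 of ZT17), Elovl6 (1 of ZT9 or 2 of ZT13), Acacb (2 of ZT13) and Srebf1 (3 of ZT9) to the dark and light calls. They added Scd1 (2 or 3 of ZT13) from ZT5 to ZT9, Elovl6 (1 of ZT9 or 2 of ZT13) and Srebf1 (3 of ZT9) from ZT13 to ZT17, and Srebf1 (1 or 3 of ZT9) from ZT17 to ZT21.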
